A study of Mus musculus with 20 samples.

Results

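Peri-infarct tissue of mice given hydroxypropyl-β-cyclodextrin (HPBCD) was compared with peri-infarct tissue of mice given vehicle. The 10 libraries whose titles name this tissue, 5 labelled HPBCD and 5 labelled vehicle, were taken from the 20 libraries of the series, and the other 10 came from the contralateral side. All mice were aged (18 months) male C57BL/6J wild-type animals without a transgene, and all had undergone DH stroke, in which the distal middle cerebral artery is occluded and the animal then breathes air low in oxygen. Tissue was taken 7 weeks after stroke. HPBCD was injected under the skin at 4 g/kg in 3 injections per week for 6 weeks, starting 1 week after stroke, and vehicle was sterile PBS on the same schedule. The infarct itself was cut away before the surrounding tissue was collected. Different mice received the 2 treatments, and each library stands for 1 mouse. There were no mice without stroke among these libraries. Which mice received HPBCD is known from the sample labels alone. No gene measured here shows independently which libraries are the treated ones, so the sign of every difference below rests on those labels. Whether the treatment labels are attached to the right libraries is in doubt and could not be settled from the counts. If they were exchanged between the groups, every sign below would turn.

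HPBCD is a ring of sugar units with a hollow, fat-friendly interior that can hold cholesterol and carry it out of cells and lysosomes. The brain makes nearly all of its own cholesterol, and cells that sense enough of it turn down sterol synthesis through the SREBP transcription factors, while oxysterols switch on export genes through the liver X receptors (LXR). Around a healed infarct, reactive astrocytes, fibroblasts of the meninges and vessels, microglia and macrophages form a border beside surviving neurons. In bulk tissue of this kind, a larger number of cells of a type and more RNA per cell cannot be told apart, and this holds for every gene below.

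The 10 libraries held 17550210 to 22171627 gene counts (median 19322087), and a count of 3, taken as the floor of detection, was 0.135 to 0.171 CPM, the count scaled to library size and given per 1e6 counts. Over all genes tested, a first component that took 52.6% of the variance between libraries separated the treatments, with vehicle libraries at -63.6 to -6.8 and HPBCD libraries at 6.9 to 69.9. The libraries of a treatment spread widely along it. Vehicle library 3 lay closest to the HPBCD libraries and vehicle library 2 farthest, while HPBCD libraries 4 and 3 lay at the far end of their group.

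**Figure D1:**
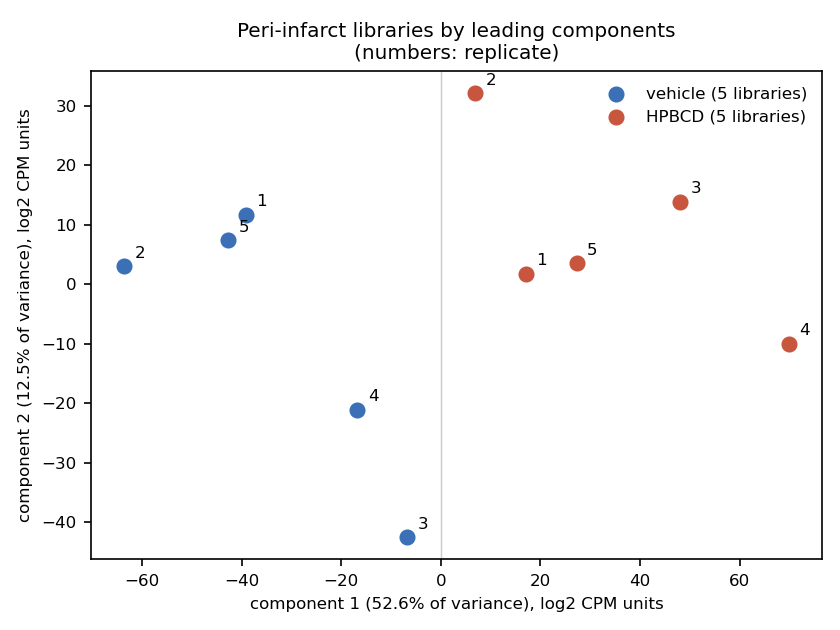
Each point is 1 peri-infarct library, placed by its scores on the first component (horizontal, 52.6% of the variance) and the second (vertical, 12.5%) of log2 CPM over the genes tested, and numbered by replicate. All 5 vehicle libraries lie left of 0 and all 5 HPBCD libraries right of it, with vehicle library 3 set apart below at -42.5 and HPBCD library 2 above at 32.1.

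The libraries differed in RNA of choroid plexus, the tissue that makes cerebrospinal fluid. Transthyretin (Ttr), its most abundant product, was at 44.9, 16.4, 2.92, 1.25 and 0.664 CPM in vehicle libraries 1 to 5. It was at 9.23, 138, 552, 116 and 17.9 CPM in HPBCD libraries 1 to 5. HPBCD libraries 2, 3 and 4 were therefore above every vehicle library, and HPBCD libraries 1 and 5 were within the vehicle range. Each result below that is given for 7 libraries leaves out these 3 and sets the 5 vehicle libraries against HPBCD libraries 1 and 5, a division made after the values had been seen.

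Of 16224 genes tested with edgeR's quasi-likelihood test, 3471 (21.4%) had an adjusted p-value under 0.05 in the 10 libraries. The genes higher in HPBCD numbered 2011 (12.4%) and the genes lower in HPBCD 1460 (9.0%), and these 2 shares are the background for every count of list members below. Changes upward were the larger ones. The median fold was 1.78 among genes that rose and 1.39 among genes that fell, and 765 genes rose at least 2-fold (4.72%) while 76 fell that much (0.468%). In 1119 genes (6.90%) every HPBCD library lay above every vehicle library, and in 1049 genes (6.47%) every HPBCD library lay below. Over all genes tested the median log2 fold change was 0.01 and 51.5% were higher in HPBCD, a balance that the scaling between libraries largely sets.

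The number of calls rested on single libraries. It fell to 823 without HPBCD library 3, to 1303 without vehicle library 2, to 1437 without vehicle library 1, to 1720 without HPBCD library 4, to 2115 without HPBCD library 5 and to 2164 without vehicle library 5, and it rose to 5339 without HPBCD library 2. In all 10 fits that left out 1 library, 802 genes passed the threshold, 587 higher and 215 lower. In the 7 libraries, edgeR called 0 of 16866 genes, with 3691 at an unadjusted p-value under 0.05 and a smallest adjusted p-value of 0.122. In the same 7 libraries DESeq2 called 998 genes (476 higher and 522 lower) and limma voom 1331 (798 higher and 533 lower). With an unadjusted p-value below 0.05 and an equal sign in the 7 libraries were 2550 of the 3471 genes. The 7 libraries are a subset of those that chose the genes and so are no independent check. The median ratio of the fold changes (log2 scale), 7 libraries over 10, was 0.793.

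Among the 10 genes that rose most (mean of at least 5 CPM and groups not overlapping), Cd5l, which encodes a secreted scavenger receptor protein of macrophages, came first (chromosome 3, 87357881 to 87371073, plus strand, GRCm38). It was at 0.512, 0.103, 2.92, 2.74 and 0.285 CPM in vehicle libraries 1 to 5 and at 9.40, 5.76, 61.2, 26.9 and 10.2 CPM in HPBCD libraries 1 to 5. The vehicle value of library 2 was under the floor of 3 counts, every HPBCD library was above every vehicle library, and HPBCD library 3 was the highest by far. The log2 fold change was 4.14 (SE 0.856, adjusted p = 0.0148).

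Col3a1 and Lum, both of the extracellular matrix, were among the others. Col3a1, which encodes the fibrillar collagen of soft tissue (chromosome 1, 45311538 to 45349706, plus strand), was at 5.07, 3.10, 7.71, 28.0 and 3.75 CPM in vehicle and at 58.8, 30.8, 108, 103 and 34.8 CPM in HPBCD libraries. Vehicle library 4 stood above the other vehicle libraries and just under the lowest HPBCD library, and the log2 fold change was 2.83 (SE 0.625, adjusted p = 0.0169). Lum, which encodes lumican, a proteoglycan that spaces collagen fibrils (chromosome 10, 97565128 to 97572703, plus strand), was at 1.23, 1.55, 1.86, 8.54 and 3.18 CPM in vehicle and at 19.4, 13.1, 32.1, 28.6 and 15.2 CPM in HPBCD libraries. Again vehicle library 4 was the highest of its group, the groups did not overlap, and the log2 fold change was 2.73 (SE 0.495, adjusted p = 0.0128).

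Kcnk5, which encodes a 2-pore potassium channel (chromosome 14, 20140057 to 20181809, minus strand), was at 2.40, 0.516, 1.52, 2.83 and 2.18 CPM in vehicle and at 9.94, 5.96, 14.2, 19.8 and 9.08 CPM in HPBCD libraries. The lowest HPBCD library was above the highest vehicle library, and the log2 fold change was 2.65 (SE 0.410, adjusted p = 0.0128). The other genes of this group were the kinase gene Nrk (log2 fold change 3.45), the lactate receptor gene Hcar1 (2.81), the cytochrome P450 gene Cyp1b1 (2.76), the lipopolysaccharide-binding protein gene Lbp (2.60) and the transcription factor genes Alx4 (2.58) and Foxd1 (2.57). All 10 passed the threshold in each of the 10 fits without 1 library. Separation of the groups was a condition of the choice, and these fits share libraries that made it, so neither is independent support. Vehicle means were 1.31 CPM for Cd5l, 0.833 for Nrk, 1.39 for Hcar1, 1.89 for Kcnk5, 3.27 for Lum and 2.91 for Alx4. These genes reached the mean of 5 CPM only through the HPBCD libraries. In the 7 libraries the log2 fold change was 2.91 for Cd5l, 2.30 for Col3a1, 2.39 for Lum and 2.33 for Kcnk5.

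The 10 genes that fell most were chosen in the same way, so their groups too were apart by the choice. Slc17a6, which encodes the vesicular glutamate transporter VGLUT2 (chromosome 7, 51622006 to 51671119, plus strand), was at 14.6, 18.8, 10.5, 15.1 and 11.2 CPM in vehicle and at 8.23, 2.10, 5.24, 3.99 and 4.98 CPM in HPBCD libraries. Every HPBCD library was below every vehicle library, HPBCD library 2 lowest, and expression fell by 1.49 on the log2 scale (SE 0.290, adjusted p = 0.0133). Slc30a3, which encodes the transporter that loads zinc into synaptic vesicles (chromosome 5, 31086106 to 31108237, minus strand), was at 78.2, 72.1, 90.0, 71.6 and 57.8 CPM in vehicle and at 51.8, 32.9, 30.3, 17.1 and 30.8 CPM in HPBCD libraries. Every HPBCD library lay outside the vehicle range, HPBCD library 4 was lowest, and the log2 fold change was -1.16 (SE 0.230, adjusted p = 0.0136).

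Cort, which encodes the neuropeptide cortistatin of cortical interneurons (chromosome 4, 149125034 to 149126763, minus strand), was at 10.6, 12, 6.13, 7.94 and 8.63 CPM in vehicle and at 4.80, 3.86, 3.26, 3.51 and 3.68 CPM in HPBCD libraries. The HPBCD libraries lay close together below all vehicle libraries, with a log2 fold change of -1.22 (SE 0.186, adjusted p = 0.0128). Car10, a carbonic anhydrase-related gene of neurons (chromosome 11, 93098028 to 93601749, plus strand), was at 132, 155, 109, 134 and 130 CPM in vehicle and at 87.4, 35.8, 59.9, 37.5 and 71.8 CPM in HPBCD libraries. HPBCD libraries 2 and 4 were the lowest, and the log2 fold change was -1.16 (SE 0.224, adjusted p = 0.0133). The remaining 6 were Gm11549 (-1.36), Nwd2 (-1.20), Dkkl1 (-1.19), the potassium channel gene Kcnc4 (-1.16), Zdhhc22 (-1.12) and the neuritin gene Nrn1 (-1.11). Dkkl1 passed the threshold in 4 of the 10 fits without 1 library, Nrn1 in 7 and Gm11549 in 9, and the other 7 genes passed in all. Nwd2 and Nrn1 overlap exons of another gene on the opposite strand, and since the sources used here do not give the strand setting of the counting, their counts are uncertain. The same holds for Bdnf, Bhlhe41, Bmp4, C1s1, C2, Cd3e, Cd55, Col5a1, Cx3cr1, Cyp51, Dbp, Ftl1, Gapdh, Hmgcs1, Irf7, Lss, Mt2, Npc1, P2ry12, Pfkm, Scap, Slc1a2, Slc32a1, Srebf1, Stab1, Stat3, Tap2, Timp3, Timp4 and Tnc, and below it is repeated only where such a gene is led with. Col3a1 shares 141 bases of its exons with another gene on its own strand.

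**Figure D2:**
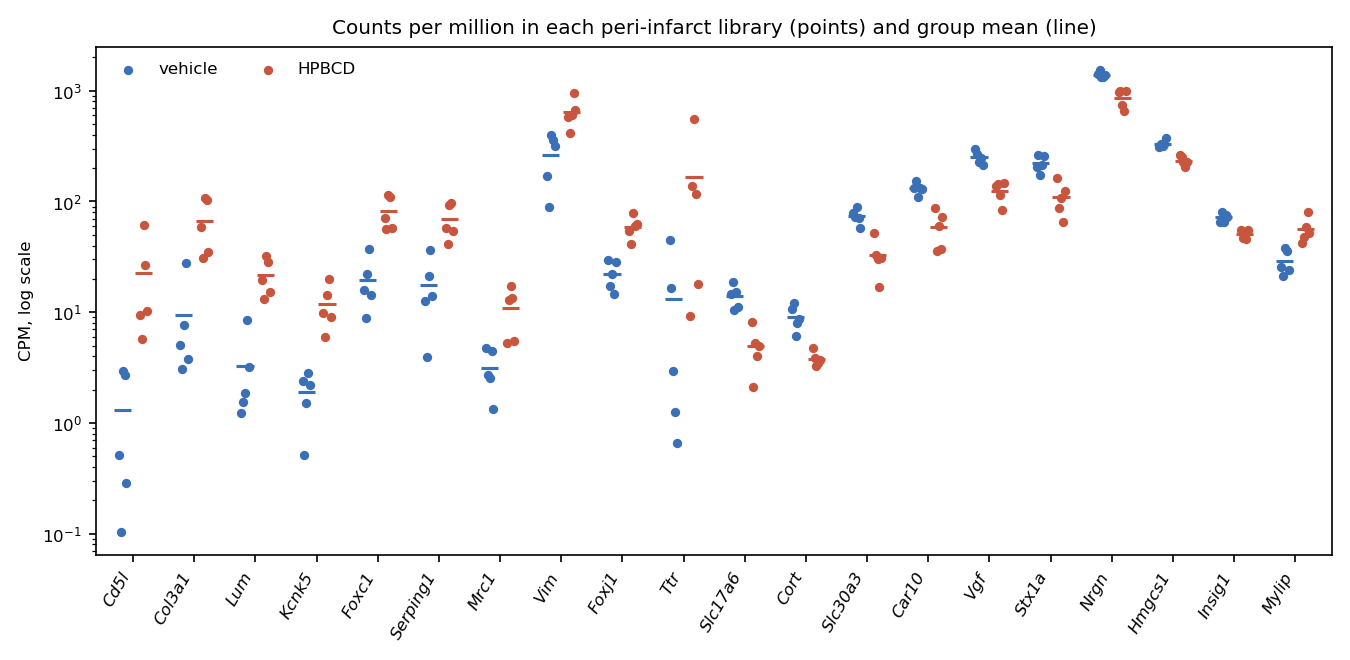
Each point is 1 peri-infarct library and each short line a group mean, with CPM on a log axis, for 20 genes described in the text (vehicle in blue, HPBCD in red, 5 libraries each). The groups are apart for genes such as Lum (highest vehicle library 8.54, lowest HPBCD library 13.1 CPM) and Slc17a6 (lowest vehicle library 10.5, highest HPBCD library 8.23 CPM), and they overlap for Ttr.

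The rest of the transcriptome was described through 66 lists of genes with a shared role, which together held 882 distinct genes that were tested. In 65 of the 66 lists the count of calls varied when 1 library was left out. The fit without HPBCD library 3 gave the lowest count, alone or with another fit, in all 65, and the fit without vehicle library 3 gave the highest in 43 and the fit without HPBCD library 2 in 33. Most list counts are therefore followed by their values in some or all of these 10 fits. For 5 lists (perineuronal net genes, B cells, axon guidance, sterol regulation and mitochondrially encoded proteins) the median changed sign with the setting, as it did for T cells in the 7 libraries (0.35 in the 10 and -0.03 in the 7), and no direction is given for these lists.

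**Figure D3:**
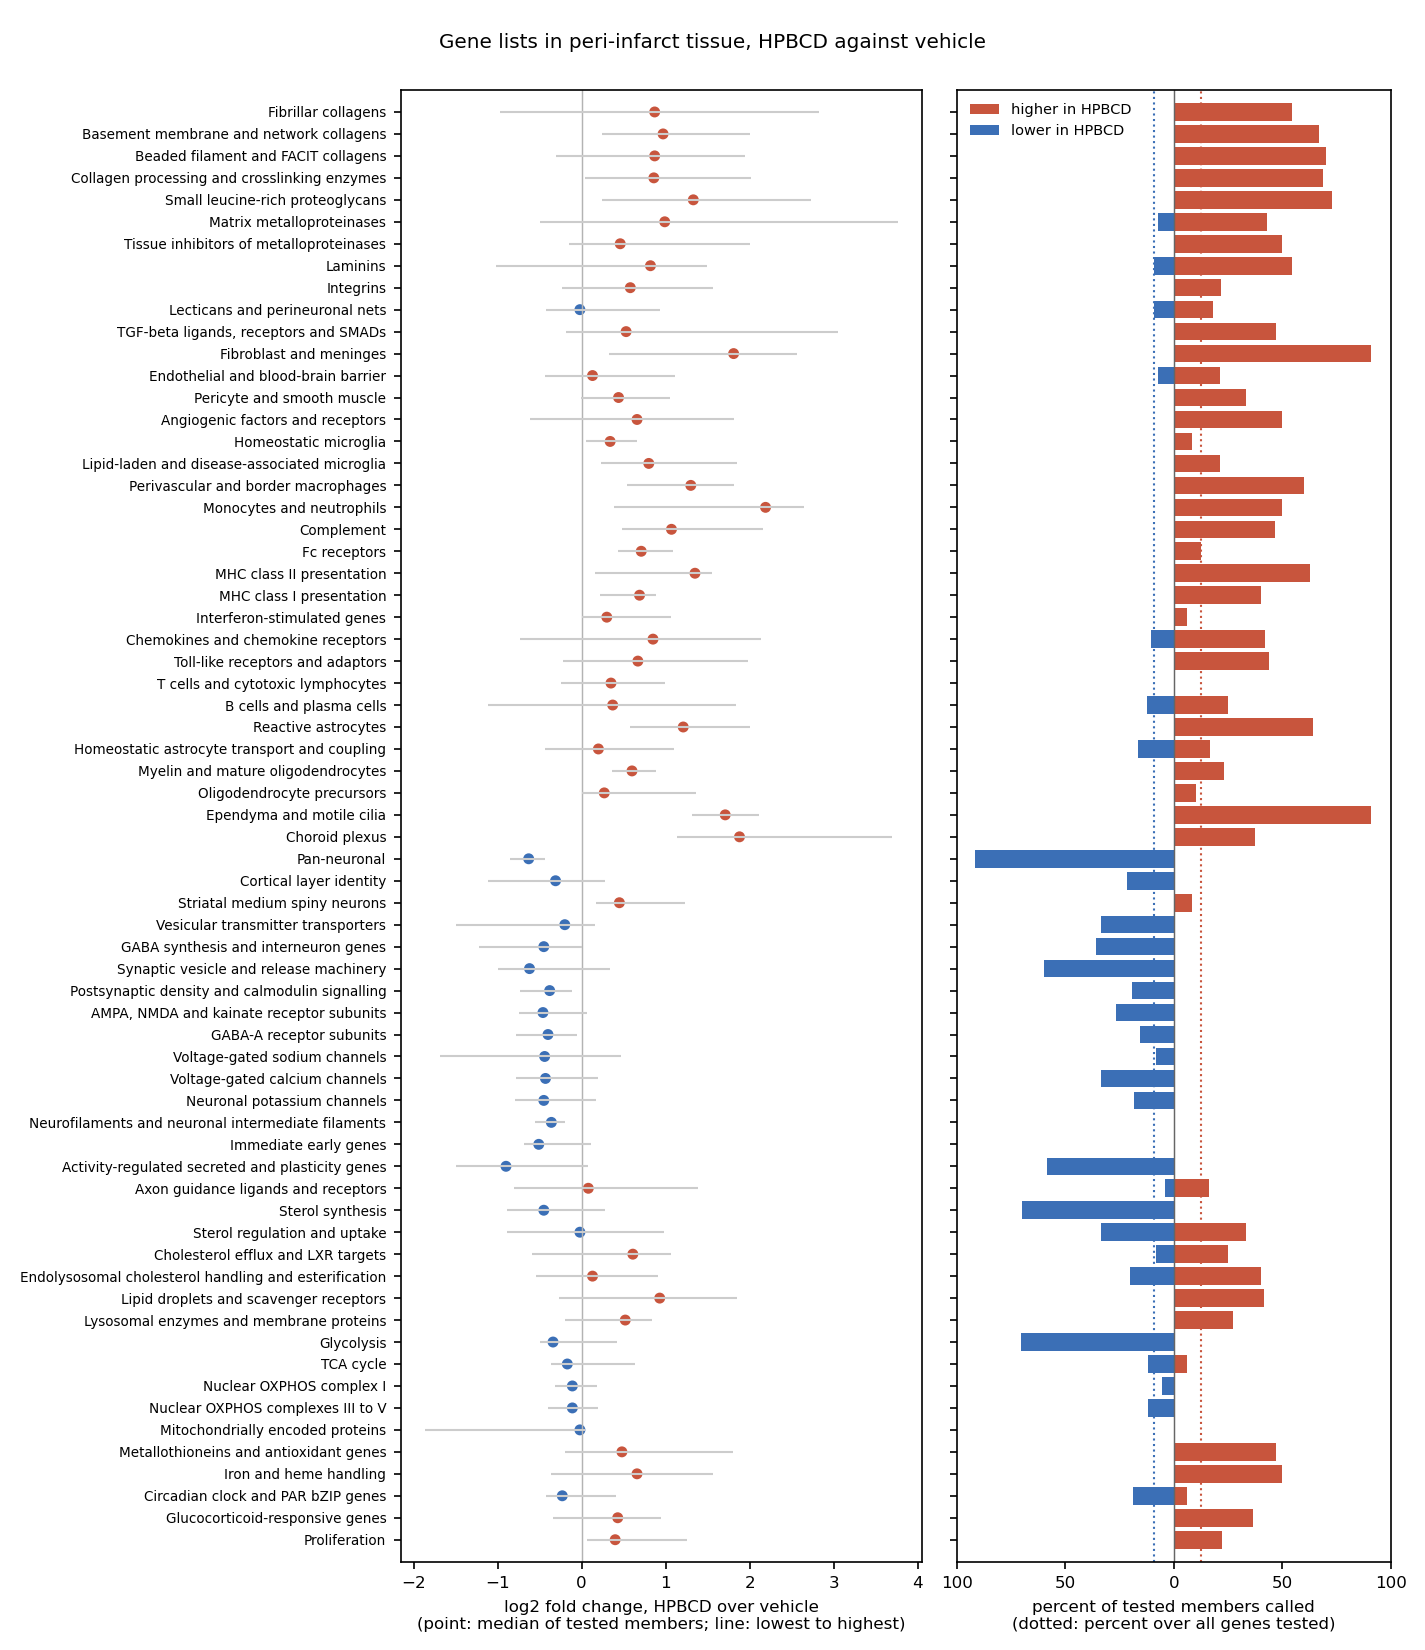
Each line of the plot is 1 gene list. The left panel shows the median log2 fold change of the tested members (point) and the lowest and highest member (line), and the right panel shows the percentage of tested members called higher (red) or lower (blue) in HPBCD, with dotted lines at the 12.4% and 9.0% over all genes tested. Matrix, fibroblast, ependymal and reactive astrocyte lists extend to the right, for example fibroblast and meninges with 10 of 11, and pan-neuronal (11 of 12), sterol synthesis and glycolysis lists extend to the left.

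Of 11 fibrillar collagens tested, which form the tensile fibres of scar, 6 rose and 0 fell, with a median log2 fold change of 0.87 (0.56 in the 7 libraries) beside 0.01 over all genes. Col1a1, the main chain of type I collagen (chromosome 11, 94936224 to 94953042, plus strand), was at 17.8, 8.21, 26.3, 49.6 and 9.39 CPM in vehicle and at 84.3, 57.5, 166, 172 and 67.5 CPM in HPBCD libraries. There was no overlap between groups, HPBCD libraries 3 and 4 were the highest, and the log2 fold change was 2.32 (SE 0.508, adjusted p = 0.0166). Col5a3, a chain of the type V collagen that regulates fibril width, was at 3.73, 4.54, 6.64, 4.59 and 4.32 CPM in vehicle and at 10.3, 9.27, 15.2, 14.5 and 10.1 CPM in HPBCD libraries. The groups did not overlap, and the log2 fold change was 1.34 (SE 0.194, adjusted p = 0.0127). Col5a2 (1.98) and Col1a2 (2.49) rose too, whereas Col5a1, chosen for its role, had a value of 0.09 and an adjusted p of 0.854.

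Of 9 basement membrane and network collagens, the sheets beneath vessels and epithelia, 6 rose and 0 fell (median 0.97, and 1.00 in the 7 libraries), led by Col18a1 (2.0), Col8a2 (1.67) and Col4a5 (1.27). The beaded filament and fibril-associated collagens rose in 7 of 10 (median 0.87), among them Col14a1 (1.94) and Col12a1 (1.53). Collagen processing enzymes rose in 11 of 16 (median 0.86), including the collagen chaperone gene Serpinh1 (1.34) and the crosslinking oxidase gene Loxl1 (2.02). Small leucine-rich proteoglycans, which bind collagen and growth factors, rose in 8 of 11 (median 1.33, and 0.98 in the 7 libraries), with decorin (Dcn) at 2.61 and osteoglycin (Ogn) at 2.07. Over the 10 fits these counts ran from 5 to 6 for fibrillar collagens, 5 to 9 for network collagens, 3 to 8 for beaded and associated collagens, 4 to 13 for enzymes and 6 to 9 for proteoglycans, and each lowest value was reached without HPBCD library 3.

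Laminins, the other scaffold of basement membranes, rose in 6 of 11, with 6 to 7 in every fit. Lamb2 rose by 1.06 (SE 0.214, adjusted p = 0.0139) and Lama1 by 1.49, and 1 laminin gene fell. Matrix metalloproteinases, which cut matrix, gave 6 higher and 1 lower of 14. Mmp14, the membrane-bound collagenase that activates other members, was at 23.7, 19.9, 38.7, 37.1 and 19.9 CPM in vehicle and at 57.3, 46.4, 86.7, 99.5 and 46.5 CPM in HPBCD libraries. The groups were apart, and the log2 fold change was 1.29 (SE 0.274, adjusted p = 0.0155). Mmp9, chosen for its role, had a value of -0.18 with an adjusted p of 0.753. The metalloproteinase count was 1 without vehicle library 1 or 5 or HPBCD library 3 or 4, and 2 without vehicle library 2. Their inhibitors Timp1 (2.01) and Timp3 (0.71) rose, and Timp2 (0.21) and Timp4 (-0.15) did not pass the test, with 0 to 2 called over the fits.

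Integrins, the receptors for matrix, rose in 5 of 23 (2 to 12 over the fits), led by Itgb1 (0.76), the partner of most others, and the collagen receptor chain Itga11 (1.45). TGF-beta pathway genes rose in 8 of 17 (3 to 10), among them the co-receptor gene Tgfbr3 (1.38), Tgfbr2 (0.91) and the inhibitory Smad6 (1.17), while the ligand gene Tgfb1 had a value of 0.71 with an adjusted p of 0.0758. Of the perineuronal net genes, Tnc, which encodes the injury-induced matrix protein tenascin-C, rose by 0.93 and the neurocan gene Ncan fell by 0.42 on the log2 scale, with 0 to 3 lower calls over the fits.

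Genes that mark fibroblasts of the meninges and vessel sheath rose in 10 of 11, with a median log2 fold change of 1.81 (1.41 in the 7 libraries). Foxc1, a transcription factor needed to form the meninges (chromosome 13, 31806633 to 31812476, plus strand), was at 15.8, 8.88, 22.2, 37.5 and 14.2 CPM in vehicle and at 70.3, 56.2, 114, 110 and 57.8 CPM in HPBCD libraries. Vehicle library 4 was again the highest of its group and HPBCD libraries 3 and 4 the highest of the 10 libraries, and the log2 fold change was 2.07 (SE 0.361, adjusted p = 0.0128). Fbln1 (2.12), Aldh1a2 (1.79), the retinoic acid synthesis gene of meninges, and the organic anion transporter gene Slc22a6 (1.81) rose with it. The summed level of all listed markers, tested or not, was 162 to 458 CPM in vehicle (median 252) and 497 to 1106 CPM in HPBCD libraries (median 661), without overlap. The collagens above move with this list, and its part in their difference was not tested. The count of called markers was 3 to 6 without vehicle library 1 or 2 or HPBCD library 3 or 4.

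Of 14 endothelial genes, 3 rose and 1 fell, with a median of 0.13. Cdh5, which encodes the junction protein VE-cadherin (chromosome 8, 104101625 to 104144511, plus strand), was at 20.2, 20.2, 26.2, 25.5 and 17.3 CPM in vehicle and at 32.5, 34.5, 51.3, 59.5 and 35.1 CPM in HPBCD libraries. No HPBCD library reached the vehicle range (log2 fold change 0.98, SE 0.189, adjusted p = 0.0131). The tight junction gene Ocln rose by 0.64, and Mfsd2a, whose product keeps transcytosis low at the blood-brain barrier, fell by 0.44 on the log2 scale. The tight junction gene Cldn5 (0.05), Pecam1 (0.12) and the VEGF receptor gene Flt1 (0.04), chosen for their roles, did not pass the test.

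Pericyte and smooth muscle genes rose in 4 of 12 (3 to 5 over the fits, median 0.44). Vtn, which encodes vitronectin, was at 60.5, 61.6, 80.7, 78.1 and 65.6 CPM in vehicle and at 128, 110, 164, 181 and 125 CPM in HPBCD libraries. The groups stood apart with little spread, and the log2 fold change was 1.05 (SE 0.147, adjusted p = 0.0127). Pdgfrb (0.75), the receptor that holds pericytes on vessels, and the contractile gene Acta2 (1.05) rose, while Rgs5 (0.14) and Kcnj8 (0.05) did not pass. Angiogenic factors and receptors rose in 6 of 12 but in 1 or 2 without vehicle library 1, 2 or 5 or HPBCD library 3 or 4. The vessel-destabilising ligand gene Angpt2 rose by 1.81 and the lymphatic growth factor gene Vegfc by 0.68, whereas Vegfa had a value of -0.21 (adjusted p = 0.214). The median of this list was 0.66 in the 10 libraries and 0.25 in the 7.

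Homeostatic microglia genes gave 1 call of 12, Sparc (0.66), and a median of 0.34. P2ry12, the purinergic receptor of resting microglia, had a value of 0.10 (adjusted p = 0.597) and Cx3cr1 0.34 (0.345). Without vehicle library 3, 9 of the 12 were called, without HPBCD library 2, 3 were, and in 7 of the other 8 fits none was. The genes of lipid-laden and disease-associated microglia had a median of 0.80 with 3 of 14 called, namely the lipid droplet coat gene Plin2 (1.17), the fatty acid receptor gene Cd36 (1.85) and the galectin gene Lgals3 (1.74). Without vehicle library 3 this count was 12, and without vehicle library 1 or HPBCD library 3 it was 0. Gpnmb was at 23.8, 7.08, 105, 129 and 23.3 CPM in vehicle and at 152, 128, 384, 236 and 113 CPM in HPBCD libraries. Vehicle library 4 was above HPBCD libraries 2 and 5, vehicle library 3 was just below all HPBCD libraries, and the log2 fold change of 1.83 (SE 0.678) had an adjusted p of 0.0718.

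Genes of perivascular and border macrophages, which sit around vessels and in the meninges, rose in 6 of 10, with a median of 1.30 that was 0.58 in the 7 libraries. Mrc1, which encodes the mannose receptor CD206 (chromosome 2, 14229392 to 14332057, plus strand), was at 4.71, 2.74, 2.53, 4.46 and 1.33 CPM in vehicle and at 5.30, 13, 17.2, 13.4 and 5.54 CPM in HPBCD libraries. HPBCD libraries 2, 3 and 4, the libraries high in Ttr, were the high ones, and HPBCD libraries 1 and 5 lay just above the vehicle range (log2 fold change 1.81, SE 0.405, adjusted p = 0.0171, and 0.79 in the 7 libraries). Pf4 (1.79) and Stab1 (1.08, uncertain by strand) rose, while Lyve1 (1.10) and Cd163 (0.54) did not pass. Without HPBCD library 3 the count was 1. Of the monocyte and neutrophil genes, 4 of 11 passed the filter on low counts, and Ccr2 (1.87) and S100a9 (2.52) rose. None of them passed without vehicle library 1, 2 or 5 or HPBCD library 3, 4 or 5. That list had a median of 2.2 in the 10 libraries and 0.52 in the 7.

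Complement, the cascade that tags debris and synapses, rose in 7 of 15 with a median of 1.07 (0.94 in the 7 libraries), and the count was 6 to 14 over the fits, the highest without vehicle library 3. The called members were the regulators and early proteases. Serping1, the gene of the C1 inhibitor (chromosome 2, 84765387 to 84775444, minus strand), was at 12.6, 3.98, 21.2, 36.7 and 13.9 CPM in vehicle and at 57.2, 41.3, 93.6, 97.9 and 54.6 CPM in HPBCD libraries. Vehicle library 4 was the highest of its group and still below every HPBCD library (log2 fold change 1.98, SE 0.463, adjusted p = 0.0192, called in 9 of the 10 fits without 1 library). The genes C1ra (1.66), Cd59a (0.98) and, uncertain by strand, C2 (1.83), Cd55 (1.32) and C1s1 (2.16) rose. C3 was at 38.0, 8.37, 173, 148 and 54.2 CPM in vehicle and at 170, 104, 203, 275 and 143 CPM in HPBCD libraries. Vehicle libraries 3 and 4 reached into the HPBCD range, and the log2 fold change of 1.10 had an adjusted p of 0.201. C4b (0.89, adjusted p = 0.0504) and the C1q chain genes C1qa (0.71), C1qb (0.75) and C1qc (0.65) did not pass.

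MHC class II genes rose in 5 of 8 with a median of 1.35 (1.04 in the 7 libraries). H2-Aa, a class II chain, was at 7.57, 2.58, 13.5, 14.4 and 5.17 CPM in vehicle and at 21.2, 16.6, 31.5, 35.9 and 20.1 CPM in HPBCD libraries. Vehicle libraries 3 and 4 came close to HPBCD library 2 without reaching it, and the log2 fold change was 1.55 (SE 0.403, adjusted p = 0.0250). H2-Eb1 (1.45), H2-Ab1 (1.37), H2-DMb1 (1.10) and the invariant chain gene Cd74 (1.38) rose with it. The class II count was 0 without vehicle library 1 or 5 or HPBCD library 3 or 4, 1 without HPBCD library 5, 2 without vehicle library 2 and 8 without vehicle library 3. Class I genes rose in 4 of 10, led by the peptide transporter gene Tap2 (0.72, uncertain by strand), in 10 without vehicle library 3 and in 0 without HPBCD library 3.

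Interferon-stimulated genes gave 1 call of 16 (0 to 8 over the fits, 8 without vehicle library 3), Ifitm3 (1.07), and a median of 0.30, with Irf7 at 0.07. Fc receptors gave 1 of 8 (1 to 7 over the fits, 7 without vehicle library 3), Fcgrt (1.09), the recycling receptor for antibody. Toll-like receptors and their adaptors rose in 7 of 16, among them the lipopolysaccharide receptor gene Tlr4 (1.24) and the adaptor gene Ticam2 (1.14), in 0 without HPBCD library 3 and in 12 without vehicle library 3. Chemokines and their receptors gave 8 higher and 2 lower of 19. The homing ligand gene Cxcl12 rose by 0.74 (SE 0.163, adjusted p = 0.0164) and Ccr1 by 1.85, while the decoy receptor gene Ackr1 fell by 0.73 on the log2 scale. Cx3cl1, the neuronal ligand of the microglial receptor CX3CR1, was at 524, 493, 439, 465 and 433 CPM in vehicle and at 404, 356, 297, 256 and 368 CPM in HPBCD libraries. All HPBCD libraries were below all vehicle libraries (log2 fold change -0.47, SE 0.122, adjusted p = 0.0262). The higher chemokine calls were 3 to 5 without vehicle library 1, 2 or 5 or HPBCD library 3, 4 or 5.

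Lymphocyte genes were low. Of 12 T cell and cytotoxic genes, 8 were tested and 0 were called by edgeR, with 1 at an unadjusted p-value under 0.05, 0 called by DESeq2 and 0 by limma voom. Cd3e was at 0.103 to 2.70 CPM in vehicle (median 0.474) and at 0.961 to 2.02 CPM in HPBCD libraries (median 1.30), overlapping fully within the vehicle range. Of 12 B cell and plasma cell genes, 8 were tested. Sdc1, a marker of plasma cells that epithelia also express, rose by 1.84 and the B cell receptor gene Cd79a by 1.69, and Ighg2c, an antibody heavy chain gene, fell by 1.11 on the log2 scale, with 1 to 3 higher calls over the fits. The immunoglobulin genes Igkc (0.41), Jchain (0.07) and Ighm (-0.04) did not pass. In the 7 libraries the log2 fold change was 0.63 for Cd79a, 1.76 for Sdc1 and -0.93 for Ighg2c. The median of the B cell and plasma cell list was 0.37 in the 10 libraries and -0.38 in the 7.

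Reactive astrocyte genes rose in 9 of 14 with a median of 1.21 (1.01 in the 7 libraries). Vim, which encodes the intermediate filament vimentin (chromosome 2, 13573927 to 13582826, plus strand), was at 170, 88.6, 395, 358 and 314 CPM in vehicle and at 582, 419, 602, 955 and 677 CPM in HPBCD libraries. Vehicle library 3 lay just under HPBCD library 2 (log2 fold change 1.30, SE 0.365, adjusted p = 0.0309). Gfap, the defining filament of reactive astrocytes (chromosome 11, 102887336 to 102900912, minus strand), was at 1174, 574, 2813, 1885 and 1852 CPM in vehicle and at 3314, 2466, 2831, 4590 and 3552 CPM in HPBCD libraries. Vehicle library 3 was above HPBCD library 2, and the log2 fold change of 1.03 (SE 0.349) had an adjusted p of 0.0552. S100a6 (1.33), Stat3 (0.58, uncertain by strand), Cd44 (1.11) and Timp1 (2.01) rose, and Lcn2 (0.63) and Serpina3n (0.98) did not pass. The astrocyte count was 2 without vehicle library 1 or HPBCD library 3 and 3 to 5 without vehicle library 2 or 5 or HPBCD library 4 or 5.

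Homeostatic astrocyte genes were mixed, with 2 higher (1 to 5 over the fits) and 2 lower of 12. The gap junction genes Gjb6 (1.10) and Gja1 (0.49) rose, and the GABA uptake gene Slc6a11 (-0.43) was among those that fell. The water channel gene Aqp4 (0.79, adjusted p = 0.0599) and the glutamate transporter genes Slc1a2 (-0.22) and Slc1a3 (0.12) did not pass. Myelin genes rose in 3 of 13 with a median of 0.60, and the count was 12 without vehicle library 5, 4 without HPBCD library 2 and 0 or 1 without vehicle library 1, 2 or 4 or HPBCD library 3, 4 or 5. Mbp, the myelin basic protein gene, was at 4759, 3290, 6086, 3778 and 7293 CPM in vehicle and at 7111, 6339, 7046, 9975 and 9177 CPM in HPBCD libraries. Vehicle library 5 lay above HPBCD libraries 1, 2 and 3, and the log2 fold change of 0.67 had an adjusted p of 0.0632. Aspa (0.73), Mobp (0.75) and the tight junction gene of myelin Cldn11 (0.88) rose. Oligodendrocyte precursor genes gave 1 call of 10 (0 to 3 over the fits), Bmp4 (1.36, uncertain by strand), and Olig2 had a value of 0.06.

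Genes of ependyma, the ciliated lining of the ventricles, rose in 10 of 11 with a median of 1.71 that was 1.65 in the 7 libraries. Foxj1, the master regulator of motile cilia (chromosome 11, 116330704 to 116335399, minus strand), was at 29.6, 17.2, 21.9, 14.5 and 28.3 CPM in vehicle and at 54.3, 41.1, 78.8, 59.8 and 62.0 CPM in HPBCD libraries. Every HPBCD library lay outside the vehicle range (log2 fold change 1.43, SE 0.218, adjusted p = 0.0128). The summed ependymal level was 28.9 to 78.3 CPM in vehicle and 122 to 230 CPM in HPBCD libraries, and the count of calls was 4 without HPBCD library 3. Choroid plexus genes were called in 3 of 8, with a median of 1.88 that was 0.02 in the 7 libraries. The summed level of all listed choroid plexus genes, tested or not, was 8.40 to 86.0 CPM in vehicle and 29.2 to 701 CPM in HPBCD libraries. Their count of calls was 5 without vehicle library 1 or HPBCD library 1, and 1 without vehicle library 2 or HPBCD library 3.

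Genes of striatal medium spiny neurons were present in libraries of both groups. Drd1, the dopamine receptor gene of these cells, was at 28.6, 30.7, 58.3, 40.9 and 20.2 CPM in vehicle and at 55.3, 18.5, 48.3, 56.6 and 62.9 CPM in HPBCD libraries. The groups overlapped (log2 fold change 0.45, adjusted p = 0.323), and 1 of 12 striatal genes was called, Isl1 (1.23), with 0 to 2 over the fits. The summed striatal level ran from 462 to 2071 CPM in vehicle (median 1154) and from 804 to 2172 CPM in HPBCD libraries (median 1837). Genes of cortical layers were also present in every library, and 3 of 14 fell (0 to 7 over the fits), among them Cux2 of the upper layers (-0.80) and Tbr1 of layer 6 neurons (-1.12). Cux2 was at 69.9, 93.5, 46.6, 59.7 and 53.8 CPM in vehicle and at 48.4, 25.6, 38.0, 25.6 and 45.3 CPM in HPBCD libraries. The libraries thus differed in RNA of ependymal and choroid plexus genes, and varied within both groups in RNA of striatal genes. The part of these in the other differences was not tested.

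**Figure D4:**
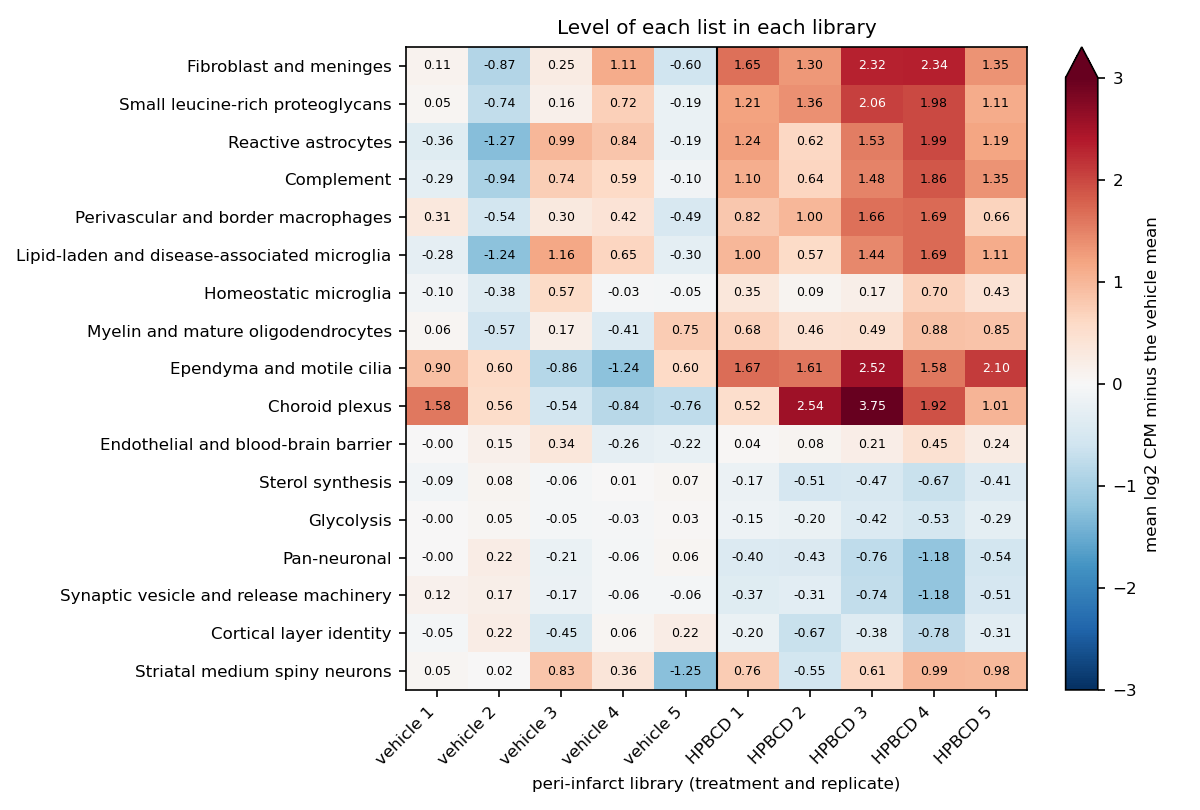
Each cell is 1 list in 1 peri-infarct library, coloured and labelled by the mean log2 CPM of the list's members minus the mean of the 5 vehicle libraries. Choroid plexus is highest in HPBCD library 3 (3.75) and ependyma is above every vehicle library in all 5 HPBCD libraries. Pan-neuronal and synaptic lists are lowest in HPBCD library 4 (-1.18 each), where the fibroblast and reactive astrocyte lists are highest (2.34 and 1.99), and vehicle library 2 holds the lowest fibroblast (-0.87), reactive astrocyte (-1.27) and myelin (-0.57) values.

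Pan-neuronal genes fell in 11 of 12, and Syt1 (-0.59, adjusted p = 0.0722) had the same sign. The list's median was -0.63 (-0.46 in the 7 libraries), and its summed level was 8004 to 10810 CPM in vehicle and 4282 to 7519 CPM in HPBCD libraries, without overlap. Nrgn, which encodes the calmodulin-binding protein neurogranin of dendritic spines (chromosome 9, 37544492 to 37552904, minus strand), was at 1414, 1536, 1320, 1335 and 1381 CPM in vehicle and at 965, 994, 742, 651 and 987 CPM in HPBCD libraries. The vehicle libraries were close together and the HPBCD libraries all below them (log2 fold change -0.67, SE 0.132, adjusted p = 0.0136). The neuronal tubulin gene Tubb3 (-0.72), the growth cone gene Gap43 (-0.67) and the nuclear marker gene Rbfox3 (-0.53) fell as well. The count was 2 without HPBCD library 3 and 4 to 7 without vehicle library 1, 2 or 5 or HPBCD library 5.

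Genes of synaptic vesicles and release fell in 12 of 20 with a median of -0.62 (-0.52 in the 7 libraries). Stx1a, a syntaxin of the fusion machinery (chromosome 5, 135023482 to 135051100, plus strand), was at 204, 261, 174, 211 and 255 CPM in vehicle and at 165, 86.6, 107, 65.7 and 124 CPM in HPBCD libraries. There was no overlap between groups, although HPBCD library 1 came near vehicle library 3 (log2 fold change -0.99, SE 0.212, adjusted p = 0.0158). The active zone genes Rims1 (-0.73) and Bsn (-0.68) and the synaptobrevin gene Vamp2 (-0.62) fell. Sv2c (0.34) and Syt2 (0.02) were the members above 0, and neither passed. The count was 3 without HPBCD library 3, 5 without vehicle library 2, 6 without vehicle library 1 and 17 without HPBCD library 2.

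On the receiving side, all 21 postsynaptic density and calmodulin genes had values below 0 (median -0.38) and 4 of them passed, including Dlg4, which encodes the scaffold PSD-95 (-0.47). Without HPBCD library 2, 17 passed, and without HPBCD library 3, 1 did. Of 15 subunits of AMPA, NMDA and kainate receptors, 4 fell, among them the kainate receptor gene Grik5 (-0.46) and the AMPA receptor genes Gria3 (-0.55) and Gria4 (-0.52). Without HPBCD library 3 or vehicle library 2 none of the 15 passed the edgeR threshold, and without HPBCD library 2, 10 did. Of 13 GABA-A receptor subunits, 2 fell (0 to 8 over the fits, 8 without HPBCD library 2), led by Gabra3 (-0.78), and all had values below 0. Voltage-gated calcium channel genes fell in 6 of 18 (2 to 14 over the fits), led by the auxiliary subunit gene Cacnb3 (-0.61), potassium channel genes in 5 of 27 (0 to 18) and sodium channel genes in 1 of 12 (0 to 7). The highest of each of these counts came without HPBCD library 2, and the lowest was reached without HPBCD library 3.

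Interneuron genes fell in 5 of 14 (2 to 6 over the fits). Sst, which encodes somatostatin (chromosome 16, 23889573 to 23890958, minus strand), was at 304, 263, 249, 235 and 243 CPM in vehicle and at 203, 177, 192, 170 and 183 CPM in HPBCD libraries. Both groups were tight and did not overlap (log2 fold change -0.46, SE 0.0875, adjusted p = 0.0128). Vip (-0.96), Calb1 (-0.56) and Cck (-0.76) fell, while the parvalbumin gene Pvalb (-0.34) and the GABA synthesis genes Gad1 (-0.35) and Gad2 (0.01) did not pass. Of the vesicular transporter genes other than Slc17a6, the cortical glutamate transporter gene Slc17a7 fell by 0.88 on the log2 scale, and the GABA transporter gene Slc32a1 had a value of -0.13. The transporter count was 2 of 6, with 1 or 2 over the fits.

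Genes of secreted and plasticity proteins that neuronal activity induces fell in 7 of 12 (3 to 11 over the fits) with a median of -0.90, the lowest median of the 66 lists. Vgf, a neuropeptide precursor (chromosome 5, 137026392 to 137033351, plus strand), was at 297, 270, 228, 247 and 212 CPM in vehicle and at 138, 144, 114, 83.6 and 147 CPM in HPBCD libraries. The lowest vehicle library was well above the highest HPBCD library (log2 fold change -0.98, SE 0.154, adjusted p = 0.0128, and -0.80 in the 7 libraries). The corticotropin-releasing hormone gene Crh (-1.50), the synapse-clustering gene Nptx2 (-0.97) and the neuropeptide gene Adcyap1 (-1.31) fell, and Bdnf (-0.67, uncertain by strand) had an adjusted p of 0.126. Immediate early genes, which respond within minutes of firing, gave 0 calls of 14 with edgeR and a median of -0.51, with 5 at an unadjusted p-value under 0.05, 2 called by DESeq2 and 1 by limma voom. Arc, the most abundant by mean CPM, was at 114, 178, 90.6, 252 and 237 CPM in vehicle and at 58.4, 116, 75.2, 86.5 and 199 CPM in HPBCD libraries. The groups overlapped (adjusted p = 0.181), and without vehicle library 3, 5 immediate early genes passed and without HPBCD library 5, 3 did. Neurofilament genes gave 0 calls of 5 with edgeR and values of -0.55 to -0.20, with 2 at an unadjusted p-value under 0.05, 1 called by DESeq2 and 2 by limma voom, and 0 to 2 over the edgeR fits without 1 library. Axon guidance genes gave 4 higher, led by Sema3d (1.38) and Robo1 (0.48), and 1 lower, Unc5d (-0.75), of 25, and the higher calls were 1 without vehicle library 2 or HPBCD library 3 and 2 to 4 in the other fits.

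Genes of cholesterol synthesis fell in 14 of 20 and none rose, with a median of -0.45 (-0.33 in the 7 libraries). The 250 bases before the transcription start of the 3 called genes with the smallest adjusted p-values are shown, since this pathway is controlled through its promoters (RefSeq sequences, GRCm38.p6, read towards the start, with CCAAT or its complement ATTGG and the letters TCACNCCAC in capitals). They lie at chr5:4104698-4104947 (minus strand, Cyp51), chr13:119690101-119690350 (plus strand, Hmgcs1) and chr8:64733579-64733828 (minus strand, Msmo1). The windows are placed by RefSeq transcription starts, whereas gene positions in the text are those of GENCODE M21. For Cyp51 and Msmo1 the RefSeq start lies inside the GENCODE gene, so part of each of these windows does too.
Cyp51: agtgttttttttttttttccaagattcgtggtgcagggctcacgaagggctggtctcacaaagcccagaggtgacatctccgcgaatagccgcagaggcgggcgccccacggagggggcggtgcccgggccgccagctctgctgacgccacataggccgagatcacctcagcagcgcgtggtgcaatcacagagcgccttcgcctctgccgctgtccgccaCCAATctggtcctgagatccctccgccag
Hmgcs1: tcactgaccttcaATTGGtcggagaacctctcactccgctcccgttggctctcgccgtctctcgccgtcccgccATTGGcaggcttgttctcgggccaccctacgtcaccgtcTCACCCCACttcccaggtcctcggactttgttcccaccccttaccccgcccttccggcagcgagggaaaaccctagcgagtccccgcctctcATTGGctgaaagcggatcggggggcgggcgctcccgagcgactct
Msmo1: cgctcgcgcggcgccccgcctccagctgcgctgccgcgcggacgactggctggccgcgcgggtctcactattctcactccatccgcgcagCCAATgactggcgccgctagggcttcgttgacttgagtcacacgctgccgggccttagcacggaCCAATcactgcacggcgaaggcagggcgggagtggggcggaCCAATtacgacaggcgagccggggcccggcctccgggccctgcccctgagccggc

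Letters were searched on both strands of windows from 250 bases before to 50 bases after the start. CCAAT, the letters bound by nuclear factor Y, was in 14 of the 15 sterol synthesis genes that matched the RefSeq table and in 41.1% of all 27025 genes with a window. TCACNCCAC, a loose form of the sterol regulatory element, was in 1 of the 15, Hmgcs1, and in 1.44% of all genes, and the stricter published element was in 0 of the 15 and in 0.0999% of all genes. The TCACNCCAC letters of Hmgcs1 began 137 bases before its start, between CCAAT copies at 176 and 45 bases. These patterns need not cover every form of the element, so their absence does not show that a promoter lacks one. CCAAT was searched for after the values were known, and these letters are a description of the windows, not of binding.

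Hmgcs1, which encodes the synthase that opens the mevalonate pathway (chromosome 13, 119690379 to 119708260, plus strand), was at 312, 331, 320, 330 and 371 CPM in vehicle and at 262, 250, 228, 205 and 226 CPM in HPBCD libraries. The vehicle libraries were tight, all HPBCD libraries lay below them, and the log2 fold change was -0.49 (SE 0.0872, adjusted p = 0.0128). Cyp51, the lanosterol demethylase gene (chromosome 5, 4081145 to 4104746, minus strand), was at 73.0, 77.4, 73.1, 72.9 and 76.8 CPM in vehicle and at 59.8, 55.1, 47.5, 50.8 and 53.1 CPM in HPBCD libraries. The vehicle libraries were close together and above every HPBCD library, with a log2 fold change of -0.47 (SE 0.0705, adjusted p = 0.0128). Both genes overlap another gene on the opposite strand and are uncertain for that reason. Msmo1, the next demethylase gene of the pathway (chromosome 8, 64718139 to 64733792, minus strand), overlaps none and was at 80.6, 76.0, 87.5, 82.8 and 80.8 CPM in vehicle and at 71.6, 53.1, 53.5, 55.4 and 63.1 CPM in HPBCD libraries. The groups were apart (log2 fold change -0.44, SE 0.0902, adjusted p = 0.0145).

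The squalene epoxidase gene Sqle fell by 0.55 on the log2 scale. Lss (-0.20), Sc5d (-0.12), Tm7sf2 (-0.23) and Ebp (0.28) did not pass. The sterol count was 6 to 9 without vehicle library 1 or 2 or HPBCD library 3, 4 or 5 and 15 without HPBCD library 2. Pan-neuronal genes fell in the same libraries, and the part of neuronal content in the sterol difference was not tested.

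Regulators of sterol level moved in both directions, 4 higher and 4 lower of 12. Insig1, the gene of a sterol-sensing retention protein and itself an SREBP target (chromosome 5, 28071363 to 28078662, plus strand), was at 65.2, 79.9, 64.9, 76.2 and 73.0 CPM in vehicle and at 55.2, 46.6, 51.6, 45.7 and 55.0 CPM in HPBCD libraries. All HPBCD libraries were below all vehicle libraries (log2 fold change -0.48, SE 0.0849, adjusted p = 0.0128). Srebf2, which encodes the main sterol SREBP, fell by 0.49 and the sterol carrier gene Stard4 by 0.69 on the log2 scale. Mylip, an LXR target that encodes a ubiquitin ligase (chromosome 13, 45389742 to 45412022, plus strand), was at 25.6, 21.1, 37.7, 35.9 and 24.0 CPM in vehicle and at 42.4, 47.5, 58.6, 79.8 and 52.0 CPM in HPBCD libraries. It moved opposite to Insig1, without overlap (log2 fold change 0.98, SE 0.204, adjusted p = 0.0149). The LXRα gene Nr1h3 (0.72) and Srebf1 (0.51, uncertain by strand) rose, and the LXRβ gene Nr1h2 (0.11) and Scap (-0.11) did not pass.

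Among export and LXR target genes, 3 rose and 1 fell of 12, with a median of 0.61 (0.57 in the 7 libraries). Cyp27a1, which encodes the sterol 27-hydroxylase, was at 4.25, 3.31, 5.51, 4.92 and 4.13 CPM in vehicle and at 8.23, 5.96, 8.97, 10.8 and 8.80 CPM in HPBCD libraries. The groups did not overlap (log2 fold change 0.97, SE 0.181, adjusted p = 0.0128, and 0.96 in the 7 libraries). Cyp46a1, the neuronal 24-hydroxylase gene through which neurons shed cholesterol, fell by 0.59 on the log2 scale. Abcg1 rose by 0.32, and Abca1, the main exporter gene, was at 68.5, 48.0, 185, 130 and 72.3 CPM in vehicle and at 168, 149, 226, 331 and 168 CPM in HPBCD libraries. Vehicle library 3 lay above 3 of the HPBCD libraries, and the log2 fold change of 1.07 had an adjusted p of 0.0524. Without vehicle library 3 or HPBCD library 2, 7 of the 12 were called higher.

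**Figure D5:**
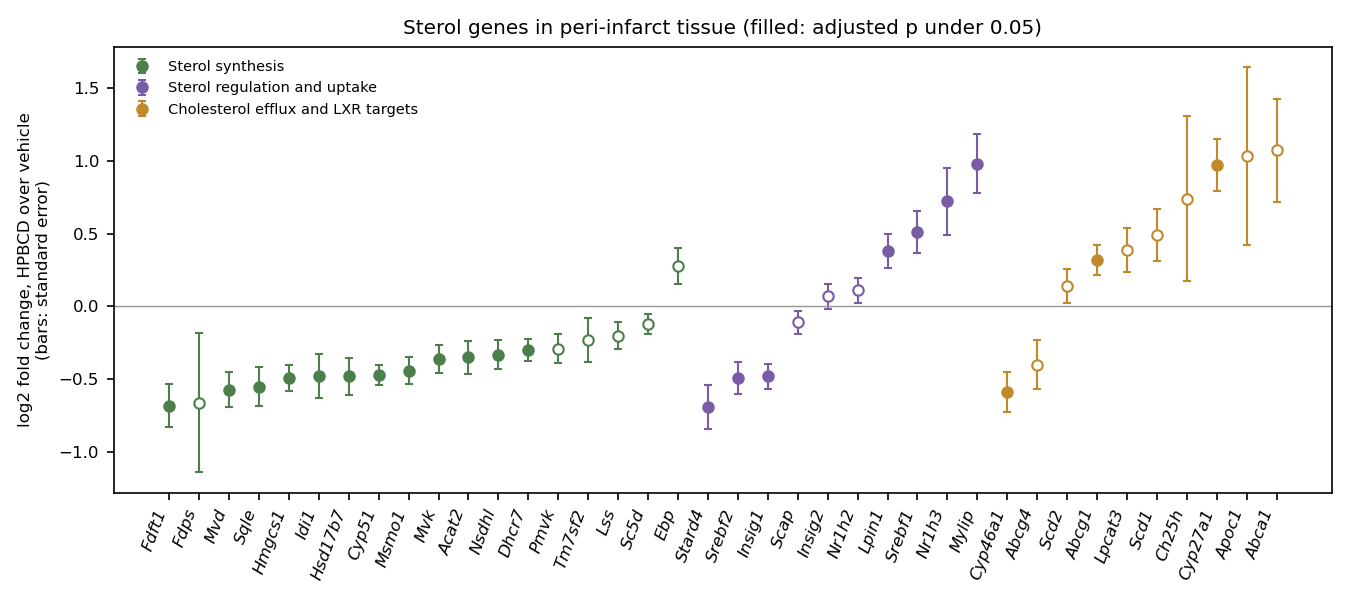
Each point is the log2 fold change (HPBCD over vehicle, 5 libraries each) of 1 sterol gene with its standard error, not every member being drawn, filled where the adjusted p-value was under 0.05, for genes of sterol synthesis (green), sterol regulation and uptake (purple) and export or LXR response (gold). Synthesis genes lie below 0 except Ebp (0.28), the regulation genes drawn run from Stard4 (-0.69) to Mylip (0.98), and the export genes lie mostly above 0 with Cyp46a1 (-0.59) below.

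Of 10 genes of endolysosomal cholesterol handling and esterification, 4 rose and 2 fell, with a median of 0.13, and the count that rose was 0 without vehicle library 1 or 2 or HPBCD library 3 or 4. In the lysosome, cholesterol esters are split by the acid lipase gene Lipa, which was at 21.2, 16.2, 35.4, 30.5 and 24.3 CPM in vehicle and at 38.8, 33.7, 63.1, 62.5 and 37.8 CPM in HPBCD libraries. HPBCD library 2 lay below vehicle library 3, so the groups overlapped, and the log2 fold change was 0.91 (SE 0.240, adjusted p = 0.0269). The lysosomal cholesterol exporter gene Npc1 (0.39, uncertain by strand) and the esterifying enzyme gene Soat1 (0.60) rose, Npc2 (0.61) did not pass, and Tmem97 fell by 0.51 on the log2 scale. Lipid droplet and scavenger receptor genes rose in 5 of 12 with a median of 0.93 (0.77 in the 7 libraries), among them the droplet coat genes Plin2 (1.17) and Plin3 (0.74) and the receptor gene Cd36 (1.85). The droplet count was 9 without vehicle library 3 and 0 without vehicle library 1 or HPBCD library 3. Lysosomal genes rose in 6 of 22 with a median of 0.52, led by Lamp2 (0.83) and including the transcription factor gene Tfeb (0.55), with 17 called without vehicle library 3, 11 without HPBCD library 2 and 0 without HPBCD library 3.

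Glycolysis genes fell in 12 of 17 with a median of -0.34 (-0.26 in the 7 libraries). Eno1, an enolase gene expressed in many cell types, was at 310, 345, 276, 289 and 340 CPM in vehicle and at 268, 234, 210, 194 and 235 CPM in HPBCD libraries. The highest HPBCD library was just under the lowest vehicle library (log2 fold change -0.43, SE 0.102, adjusted p = 0.0197). Ldha (-0.37), Pgk1 (-0.31) and, uncertain by strand, Pfkm (-0.38) and Gapdh (-0.31) fell, whereas the astrocyte aldolase gene Aldoc (-0.14), Ldhb (-0.11) and Hk2 (0.42) did not pass. Differences in this list were small and its count was fragile, with 0 without HPBCD library 3, 1 to 4 without any 1 of vehicle libraries 1, 2, 4 and 5 or HPBCD libraries 4 and 5, and 14 without HPBCD library 2. With no filter on low counts it was 4. Of the citric acid cycle genes, 2 of 17 fell (Mdh2, -0.31, and Cs, -0.26) and 1 rose (Suclg2, 0.63), with 0 to 8 lower over the fits. Nuclear genes of respiratory complex I fell in 2 of 36 (0 to 9 over the fits) and those of complexes III to V in 4 of 33 (1 to 5), each with a median of -0.11, beside the background of 9.0%. Of the 13 mitochondrially encoded protein genes 9 were tested, and edgeR called 0 of them, with 1 at an unadjusted p-value under 0.05, 1 called by DESeq2 and 0 by limma voom.

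Metallothionein and antioxidant genes rose in 8 of 17 with a median of 0.48. Slc7a11, the cystine importer gene (chromosome 3, 49892526 to 50443614, minus strand), was at 54.6, 43.5, 73.0, 72.3 and 56.9 CPM in vehicle and at 117, 139, 200, 150 and 84.8 CPM in HPBCD libraries. No HPBCD library reached the vehicle range (log2 fold change 1.22, SE 0.217, adjusted p = 0.0128). Nqo1 (1.06), catalase (Cat, 0.48) and the heme oxygenase gene Hmox1 (0.98) rose, and the metallothionein genes Mt1 (0.61) and Mt2 (0.84) did not pass. The count was 2 without vehicle library 2 or HPBCD library 3 and 13 without HPBCD library 2. Iron and heme genes rose in 7 of 14 (2 to 8 over the fits). Steap3, an endosomal ferrireductase gene, was at 7.37, 5.01, 14.4, 15.4 and 6.97 CPM in vehicle and at 26.0, 15.2, 30.5, 42.1 and 26.3 CPM in HPBCD libraries. HPBCD library 2 lay just below vehicle library 4, and the log2 fold change was 1.53 (SE 0.336, adjusted p = 0.0166). The ferritin genes Fth1 (0.47) and, uncertain by strand, Ftl1 (0.77) rose.

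Circadian clock genes gave 1 higher, Bhlhe41 (0.41), and 3 lower, among them Npas2 (-0.42), of 16, with 0 to 5 lower over the fits, and Dbp, which swings widely over the day, had a value of 0.01 (adjusted p = 0.961). Glucocorticoid-responsive genes rose in 4 of 11 (0 to 6 over the fits), including Sgk1 (0.43) and Nfkbia (0.54), while Fkbp5 (0.36) and Tsc22d3 (0.23) did not pass. Proliferation genes rose in 2 of 9 (0 to 3), Top2a (1.25) and Mcm2 (0.37), and Mki67 had a value of 1.19 with an adjusted p of 0.0909.

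The same treatments were compared in contralateral tissue. There edgeR called 0 of 15469 genes (0.00%), with 1224 at an unadjusted p-value under 0.05 and a smallest adjusted p-value of 0.236, while DESeq2 called 49 and limma voom 0. Whether the treatment difference itself differed between the sides was tested over all 20 libraries and 16758 genes with edgeR. The difference was more positive in peri-infarct tissue in 843 genes (5.03%) and more negative in 734 (4.38%), together 1577 genes (9.41%). HPBCD contralateral library 3 was also high in choroid plexus RNA, with Ttr at 582 CPM, and the other 9 contralateral libraries were at 0 to 6.08 CPM. HPBCD contralateral library 4 stood apart in read assignment, with 8.03% of reads ambiguous between genes beside 3.94% to 4.16% in the other 19 libraries, 9.5% assigned to no feature beside 4.39% to 5.86%, and the fewest gene counts (14445021). The number of genes that differed between sides was 704 without that library and 1360 without library 3. It also moved by over 1.5 times without HPBCD contralateral library 2 (715) or 5 (1047), vehicle contralateral library 1 (924), 2 (1022) or 3 (857), vehicle peri-infarct library 1 (822) or 2 (529) or HPBCD peri-infarct library 3 (555) or 4 (782), all lower, and to higher numbers without vehicle peri-infarct library 3 (2851) or HPBCD peri-infarct library 2 (3121). In contralateral tissue itself edgeR called 0 genes in each of the 10 fits without 1 library, which were added after seeing the data, with 903 at an unadjusted p-value under 0.05 without library 4.

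By list, the difference was more positive in peri-infarct tissue for 6 of 16 collagen processing genes, 5 of 14 reactive astrocyte genes, 6 of 11 ependymal genes and 4 of 13 myelin genes. It was more negative for 8 of 12 pan-neuronal, 10 of 20 synaptic vesicle, 6 of 18 calcium channel, 3 of 20 sterol synthesis and 2 of 21 postsynaptic genes. Vtn differed between sides by 1.09 on the log2 scale (adjusted p = 0.0139), with a contralateral log2 fold change of -0.04. Slc17a6 differed by -2.0 (adjusted p = 0.0139), with a contralateral value of 0.51, and Nrgn by -0.80 (adjusted p = 0.0177), with 0.13. For Cort the contralateral log2 fold change was -0.75 and the difference between sides of -0.47 had an adjusted p of 0.324. Insig1 differed by -0.59 (adjusted p = 0.0190), with a contralateral value of 0.11. Hmgcs1 differed by -0.59 (adjusted p = 0.0167), with a contralateral value of 0.10, and Mylip by 1.00 (adjusted p = 0.0276), with -0.03. Vtn, Slc17a6, Nrgn, Insig1 and Hmgcs1 passed this test in all 20 fits without 1 library, and Mylip did not pass without HPBCD contralateral library 2, HPBCD peri-infarct library 3 or vehicle peri-infarct library 2. These genes were named for their peri-infarct difference, which is part of this contrast, so their passes are no independent support. The choroid plexus list had medians of 1.88 in peri-infarct and 1.60 in contralateral tissue, and the striatal list medians of 0.45 and -1.76, while edgeR called 0 contralateral genes of any list and 0 choroid plexus genes and 1 striatal gene passed the test of the difference.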

How the data were processed

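Poly(A) RNA of 20 tissue samples was sequenced by the authors as stranded 75-base paired-end libraries. The deposited values are raw read counts per gene, made by the authors with bcl2fastq 2.19, Trimmomatic 0.32, STAR 2.5.2b and htseq-count on GRCm38. The annotation release and strand setting are not given in the sources used here. 5 summary lines naming no gene were removed, and 98.16% of 46078 genes matched GENCODE M21, used for positions. The 10 peri-infarct libraries (17550210 to 22171627 counts) were compared unpaired with edgeR 4.0.16 in R 4.3.3 (TMM, filterByExpr, quasi-likelihood F test, Benjamini-Hochberg adjusted p under 0.05), and log2 fold changes are HPBCD over vehicle as labelled. CPM used TMM factors over all 20 libraries. A standard error is the absolute log2 fold change divided by the square root of F. The interaction used all 20 libraries. Alternatives were DESeq2 1.42.0, limma 3.58.1 voom, other scalings, filters and thinning, a replicate block, and each library left out. Limma voom was run with sample quality weights throughout, which give less weight to libraries that deviate. The 7-library fits, the other tools on them and on contralateral tissue, and the CCAAT search were added after seeing the data. On simulated data (16224 genes, 200 changed 2-fold) edgeR recovered 73.5% of them and made 5.8% of its calls among unchanged genes, against 22.6% for DESeq2 and 6.5% for limma voom. P-values measure the spread between these mice only, and intervals from counts cover counting error only.

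Genes named were the 10 that rose and the 10 that fell most (called, mean of at least 5 CPM, groups apart), up to 3 called members per list by smallest adjusted p, the most abundant member where none was called, and members chosen for their role, which include the other called members and those that did not pass. The members and lists were chosen with earlier results of these data known. Some items are not reported here.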

Additional observations from a re-analysis of the deposited data

Results flagged for a closer look

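A single library stood far from the other 4 of its group in 6 of 110 combinations of gene and group examined (55 genes), where chance alone sets about 1 in 20 apart. In 5 of them it was vehicle library 4, which was above the other vehicle libraries for Nrk (3.30 CPM), Col3a1 (28.0 CPM), Hcar1 (3.95 CPM), Lum (8.54 CPM) and Foxd1 (15.4 CPM). In the other it was HPBCD library 3 for Ttr (552 CPM).

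For 32 of the 55 genes, the treatment difference itself differed between peri-infarct and contralateral tissue in the edgeR interaction test (1577 of all 16758 genes tested, 9.41%), with adjusted p-values of 0.0139 to 0.0474. Most of the 55 were named for their peri-infarct difference, which is part of this contrast, so their share is not comparable with that of all genes. Over the 20 fits without 1 library, 17 to 37 of the 55 passed, and 20 did without HPBCD contralateral library 4. With the replicate number within a treatment as a block, 34 passed. Deposited files of the 2 sides with the same number share an identifier, which may be the mouse, though no label says so. Col3a1 (adjusted p 0.0622 without and 0.0433 with the block, edgeR), Nwd2 (0.158 and 0.0447) and Lipa (0.0624 and 0.0431) gained the call, and Vim (0.044 and 0.0584) lost it. The peri-infarct minus contralateral difference (log2 scale) was positive for Hcar1 (3.14), Cyp1b1 (2.64), Lum (2.93), Kcnk5 (2.64), Foxd1 (2.27), Cdh5 (1.06), Col1a1 (2.48), Col5a3 (1.77), Foxc1 (2.0), Foxj1 (1.97), Gfap (1.64), Mbp (1.2), Mmp14 (1.6), Mylip (1.0), Slc7a11 (1.23), Steap3 (1.36), Vim (1.44) and Vtn (1.09). It was negative for Slc17a6 (-2.0), Gm11549 (-1.55), Dkkl1 (-1.39), Slc30a3 (-1.03), Kcnc4 (-1.12), Car10 (-1.27), Nrn1 (-1.26), Cux2 (-0.95), Cyp51 (-0.49), Hmgcs1 (-0.59), Insig1 (-0.59), Msmo1 (-0.42), Nrgn (-0.8) and Stx1a (-1.1).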

How the results depend on the processing

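Of 3471 genes called in peri-infarct tissue, leaving out 1 library gave 823 to 5339 in all, 593 to 2792 higher and 230 to 2674 lower. Limma voom gave 6012 (3224 higher, 2788 lower), a 2-fold minimum 841 (765 and 76), the fit of all 4 groups 2326 lower, and leaving out the 3 HPBCD libraries high in Ttr, chosen after seeing the data, 0 in all, 0 higher and 0 lower. The 1577 genes whose difference differed between sides became 529 to 3121 without 1 library. The other settings stayed within 1.5 times for these numbers. Counts of called list members also moved with the tool. With limma voom they went from 6 to 16 for lysosomal genes and from 4 to 18 for postsynaptic genes. They went from 3 to 11 for lipid-laden microglia genes and from 6 to 4 for angiogenic genes. With replicate number as a block, 4375 genes were called (2608 higher, 1767 lower), and with it as a block within each treatment 1830 differed between sides. Deviations of same-numbered libraries of the 2 sides correlated at -0.13 to 0.31 in vehicle (2 of 5 above 0.1, 1 of 5 best with its own number) and at -0.11 to 0.32 in HPBCD libraries (3 and 2 of 5), so the values do not show that the number marks a mouse. In contralateral tissue DESeq2 called 49 genes where edgeR called 0, and edgeR called 0 in each fit without 1 library. Same-numbered vehicle and HPBCD libraries are different mice, and their deviations correlated at -0.03 to 0.32, 2 of 5 above 0.1, with 1 of 5 correlating best with its own number. Of 171 called genes named, 91 lost the call in at least 1 fit without a library, 14 under at least 1 other setting and all 171 in the 7 libraries, and none reversed in these fits. Of 62 not called, 25 passed in at least 1 fit without a library and 24 under another setting. The causes were not tested. Genes near the floor of 3 counts, such as Cd5l in vehicle, have folds that depth limits.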
